A study of Mus musculus with 2 samples.

Results

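The let-7 microRNAs encoded outside the miR-99/100, let-7, miR-125 tricistrons were described in the midbrain of newborn mice. They are 9 of the 1973 microRNA genes in the count tables. The members were chosen by gene name: Mirlet7a-1, Gm24111, Mirlet7d, Mirlet7b, Mirlet7c-2, Mirlet7f-2, Mir98, Mirlet7g and Mirlet7i. Gm24111 lies opposite the hairpin Mirlet7f-1, which has no row in these tables, and its reads were taken from its opposite strand, the strand of Mirlet7f-1. For the other 8 members, reads on the hairpin's own strand were counted. The series holds 1 group with no second condition: the libraries come from pup 1 and pup 3, mice of the B6NCrl strain on postnatal day 0, with no treatment, transgene or genotype named in the labels. Each library was made from the total RNA of 1 midbrain, with small RNAs under 30 bases, and sex was not recorded. The labels call the pups biological replicates but give both the same donor identifier.

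MicroRNAs are cut from hairpin precursors, first in the nucleus by Drosha and then in the cytoplasm by Dicer, and 1 arm of the hairpin guides the repression of messenger RNAs. The let-7 family is known for its build-up as stem cells and neural progenitors give way to differentiated cells, and for repressing growth-promoting genes such as Hmga2, Lin28 and members of the Ras family. LIN28 proteins bind let-7 precursors and block their processing, and in human cells most let-7 precursors outside the tricistrons need the addition of a uridine before Dicer cuts them efficiently.

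The guide of every member is its 5p arm, which begins near the 5′ end of the hairpin. Sequences are those of RefSeq on GRCm38.p6, where the hairpins of all 9 members were matched. The 9 hairpins carry 8 distinct 5p arms, shown because the differences between them decide which reads can be assigned to 1 hairpin. The seed, bases 2 to 8, is in capitals.
let-7g-5p (Mirlet7g): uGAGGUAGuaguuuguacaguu
let-7i-5p (Mirlet7i): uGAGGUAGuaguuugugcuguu
let-7d-5p (Mirlet7d): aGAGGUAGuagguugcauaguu
let-7b-5p (Mirlet7b): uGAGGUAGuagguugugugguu
miR-98-5p (Mir98): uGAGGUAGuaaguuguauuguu
let-7f-5p (Mirlet7f-2 and Mirlet7f-1): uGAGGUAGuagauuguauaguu
let-7c-5p (Mirlet7c-2): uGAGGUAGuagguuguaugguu
let-7a-5p (Mirlet7a-1): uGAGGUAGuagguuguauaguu

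All 8 arms are 22 bases long and share the seed GAGGUAG, which 13 of the 1738 mature mouse entries in the RefSeq table carry (0.748%). These entries hold 11 distinct sequences, and none is listed for Mirlet7a-2, although its hairpin holds let-7a-5p. Counted from the 5′ end of let-7a-5p, let-7f-5p differs by G12A and let-7c-5p by A19G. The arm of let-7b differs from let-7a-5p by A17G and A19G, that of let-7d by U1A and U16C, that of miR-98 by G11A and A19U, and that of let-7g by G12U and U18C. Farthest from let-7a-5p was let-7i-5p, with G12U, A17G, U18C and A19U. Among the 28 pairs of distinct arms the number of mismatches ran from 1 to 6, and 3 pairs differed at 1 base.

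Each 5p arm was searched for in the 2202 microRNA transcripts of the GENCODE M21 annotation, on both strands, with overlapping hairpins taken as 1 locus. The arms of Mirlet7g, Mirlet7i, Mirlet7d, Mirlet7b and Mir98 each occurred in 1 hairpin locus. Those of the other 4 members each occurred in 2. Mirlet7a-1 shares let-7a-5p with Mirlet7a-2 and Mirlet7c-2 shares let-7c-5p with Mirlet7c-1, in both cases a hairpin of a tricistron, while Mirlet7f-1 and Mirlet7f-2 share let-7f-5p with each other. Reads that map to several places were counted under no gene. In pup 1 38.7% of all reads were of this kind and in pup 3 39.8%, and their origin was not analysed here.

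Mirlet7g and Mirlet7i, which have no other member within 10 kb on their strand, had the highest counts of the 9 members, and Mirlet7a-1 and Gm24111 the lowest, among reads that map to 1 place. Set against the own-strand total of pup 1, the members' counts came to 12.3%, 286517 of 2337113, with an exact 95% interval from 12.2 to 12.3%. In pup 3 the share was 12.4%, 396992 of 3195277, with an interval from 12.4 to 12.5%. The mean share was 12.3% ± 0.117 (SD, n = 2), and such intervals cover counting error only. The members' counts include those of Gm24111 from its opposite strand, 311 in pup 1 and 369 in pup 3, which are not part of the totals. Without Gm24111 the mean share was also 12.3%. In whole tissue, fewer cells of a type and less RNA per cell cannot be told apart, so every level here is an average over the midbrain. With at least 10 counts in each pup as the rule for detection, 9 of 9 members were detected, where 18.2% of all genes were. Levels are CPM, the counts on the strand used for each hairpin scaled to 1000000 own-strand counts on genes in each library. A read is a whole small RNA, so CPM was not divided by the length of the hairpin.

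**Figure D1:**
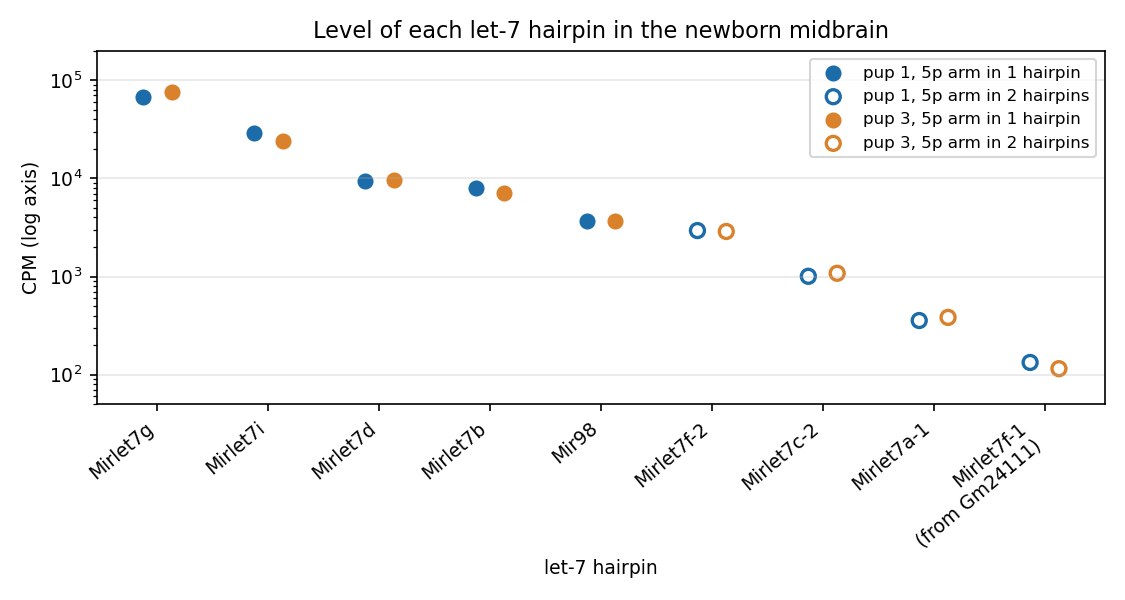
CPM (log axis) of each let-7 hairpin in pup 1 and pup 3, 1 point per library, with filled points for a 5p arm found in 1 annotated hairpin and open points for one found in 2. The levels run from 75541 CPM for Mirlet7g in pup 3 down to 115 CPM for Mirlet7f-1 (counted under Gm24111) in pup 3, and the open points lie below the filled ones.

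Mirlet7g, in an intron of the gene for the histone methyltransferase subunit Wdr82 (ENSMUSG00000065440.1, chromosome 9, 106178840 to 106178927, plus strand, GRCm38), had 67879 CPM in pup 1, against 75541 CPM in pup 3. Among reads that map to 1 place it was the second most abundant of all genes, at 71710 ± 5418 CPM (SD, n = 2). This rank and those below leave out reads that map to several places, so genes with a shared arm may stand too low. By rank it stood below Mir99a at 162874 ± 16343 CPM and above Mir487b at 53491 ± 4144 CPM, and in neither case did the values of the pups overlap with its own. Mirlet7g alone made up 55.4% of the members' counts in pup 1 and 60.8% in pup 3.

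Mirlet7i (ENSMUSG00000065406.2, chromosome 10, 122985640 to 122985724, minus strand) lies in an exon of D630033A02Rik, annotated as a transcribed processed pseudogene. It had 29091 CPM in pup 1, against 23813 CPM in pup 3, or 26452 ± 3732 CPM, and ranked 6 among all genes. Its neighbours in rank were Mir126a at 33142 ± 4309 CPM and Mir137 at 24297 ± 3132 CPM. The pups did not overlap between Mir126a and Mirlet7i, while those of Mir137 (22082 CPM in pup 1, against 26512 CPM in pup 3) overlapped with those of Mirlet7i. Mirlet7i had the widest spread of the members, with an SD of 14.1% of its mean, and Mir98 the narrowest, with 0.130%.

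The remaining 7 hairpins lie in 3 clusters of neighbouring hairpins on 1 strand. On chromosome 13, Mirlet7a-1 (ENSMUSG00000065421.2, 48538179 to 48538272), Mirlet7f-1 (48537829 to 48537917) and Mirlet7d (ENSMUSG00000065453.1, 48536012 to 48536114) follow each other on the minus strand, in exons of the noncoding gene 6720427I07Rik. The gap is 261 bases between the first pair and 1714 bases between Mirlet7f-1 and Mirlet7d. Gm24111 (ENSMUSG00000093232.1, 48537825 to 48537921, plus strand) covers Mirlet7f-1 from the other side.

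Levels within this cluster lay far apart. Mirlet7d, the member whose 5p arm starts with A, had 9473 CPM in pup 1, against 9700 CPM in pup 3 and ranked 23 among all genes. Its neighbours in rank, Mir30a at 9745 ± 688 CPM and Mir411 at 9330 ± 1249 CPM (SD, n = 2 each), both overlapped with it between the pups. Mirlet7a-1 had 356 CPM in pup 1, against 383 CPM in pup 3. Mirlet7f-1, read from Gm24111, had 133 CPM in pup 1, against 115 CPM in pup 3, the lowest of the members. Mirlet7d thus had 26.6 times the counts of Mirlet7a-1 in pup 1 (95% counting interval 24.8 to 28.6) and 25.3 times in pup 3 (23.9 to 26.8). Over Mirlet7f-1 the ratio was 71.2 in pup 1 (63.6 to 79.9) and 84.0 in pup 3 (75.8 to 93.3). The arm of Mirlet7d occurs in 1 hairpin locus, and those of Mirlet7a-1 and Mirlet7f-1 in 2, and the part of this in the gap was not tested.

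On chromosome 15, Mirlet7c-2 (ENSMUSG00000065608.1, 85706603 to 85706697) and Mirlet7b (ENSMUSG00000065564.1, 85707319 to 85707403) lie 621 bases apart on the plus strand, in exons of the noncoding gene Lncppara. Mirlet7b had 8008 CPM in pup 1, against 7034 CPM in pup 3, and Mirlet7c-2 had 1005 CPM in pup 1, against 1079 CPM in pup 3. The ratio of Mirlet7b to Mirlet7c-2 was 7.97 in pup 1 (7.64 to 8.32) and 6.52 in pup 3 (6.29 to 6.76). Here too the higher hairpin has its 5p arm in 1 locus and the lower one in 2.

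On the X chromosome, Mirlet7f-2 (ENSMUSG00000065602.1, 151912346 to 151912428) and Mir98 (ENSMUSG00000065536.2, 151913214 to 151913321) lie 785 bases apart on the plus strand, in an intron of Huwe1, the gene of a ubiquitin ligase. Their levels were the closest of any cluster. Mir98 had 3709 CPM in pup 1, against 3702 CPM in pup 3, and Mirlet7f-2 had 2940 CPM in pup 1, against 2876 CPM in pup 3. The ratio of Mir98 to Mirlet7f-2 was 1.26 in pup 1 (1.22 to 1.30) and 1.29 in pup 3 (1.25 to 1.32). Divided by the length of the annotated hairpin, Mirlet7f-2 came before Mir98, which was the only change that this division made to the order of the 9 members.

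**Figure D2:**
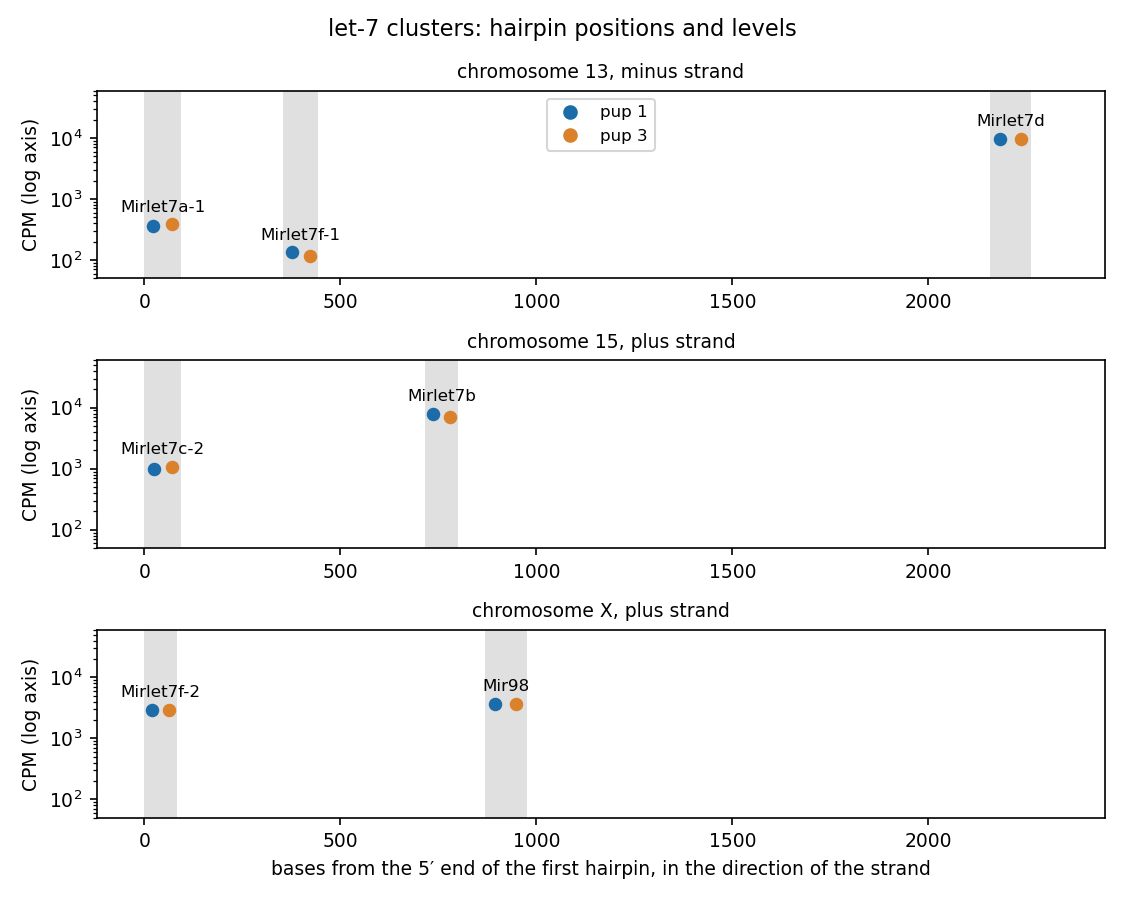
Levels in CPM (log axis) of the 3 let-7 clusters against the distance in bases from the 5′ end of the first hairpin, along the strand. Grey bands are the hairpins and points the pups. Mirlet7d stands far above its cluster partners, Mirlet7b above Mirlet7c-2, and Mir98 and Mirlet7f-2 close together.

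In falling order of mean CPM the members were Mirlet7g, Mirlet7i, Mirlet7d, Mirlet7b, Mir98, Mirlet7f-2, Mirlet7c-2, Mirlet7a-1 and Gm24111. Each pup alone gave this order. In all 8 pairs of neighbours the values of the pups did not overlap, with the smallest gaps between Mirlet7d and Mirlet7b and between Mir98 and Mirlet7f-2, both 1.27-fold in mean CPM. With 2 values for each hairpin no test of these gaps was made.

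The 5 members whose 5p arm occurs in 1 hairpin locus filled the first 5 places. They lay between 3709 and 67879 CPM in pup 1, with a median of 9473 CPM, and between 3702 and 75541 CPM in pup 3, with a median of 9700 CPM. The 4 members whose arm occurs in 2 loci lay between 133 and 2940 CPM in pup 1, with a median of 680 CPM, and between 115 and 2876 CPM in pup 3, with a median of 731 CPM. Hairpins of the first kind held 96.4% of the members' counts in pup 1, with an exact interval from 96.3 to 96.5%, and also in pup 3, where it ran from 96.4 to 96.5%. These values describe counts of reads that map to 1 place, and the levels of the 4 hairpins with a shared arm are uncertain. Allowing 1 mismatch, the number of loci was 1 for the arms of Mirlet7g, Mirlet7d and Mir98. It was 2 for Mirlet7i, 3 for Mirlet7b, 4 for Mirlet7f-2 and Mirlet7f-1, 5 for Mirlet7c-2 and 7 for Mirlet7a-1.

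The 3p arms are cut from the other side of the hairpin. Those of the 4 hairpins with a shared guide are shown because Mirlet7a-1 and Mirlet7c-2 have 1 sequence in common, while the 3p arms of Mirlet7f-1 and Mirlet7f-2 each occur in 1 hairpin locus.
let-7a-1-3p (Mirlet7a-1): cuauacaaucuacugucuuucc
let-7c-2-3p (Mirlet7c-2): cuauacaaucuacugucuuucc
let-7f-1-3p (Mirlet7f-1): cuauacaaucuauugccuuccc
let-7f-2-3p (Mirlet7f-2): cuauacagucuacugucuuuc

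Neither arm of Mirlet7a-1 or Mirlet7c-2 was thus found in 1 locus alone, and yet both hairpins had counts. A read that runs past the annotated end of the arm can belong to 1 hairpin. The shortest such reads from the first base of the 5p arm are printed next, with the bases beyond the annotated arm in capitals.
Mirlet7a-1: ugagguaguagguuguauaguuUU
Mirlet7c-2: ugagguaguagguuguaugguuUU
Mirlet7f-1: ugagguaguagauuguauaguuG
Mirlet7f-2: ugagguaguagauuguauaguuU

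For Mirlet7f-1 and Mirlet7f-2 1 further base was enough, and for Mirlet7a-1 and Mirlet7c-2 2 bases were needed. Among reads that map to 1 place, Mirlet7f-2 had 22.1 times the counts of Mirlet7f-1 in pup 1 (19.7 to 24.8) and 24.9 times in pup 3 (22.4 to 27.7). The 2 hairpins share the 5p arm, and the further base that sets a read apart is U for Mirlet7f-2 and G for Mirlet7f-1. The part of this in the ratio was not tested, so the ratio need not be that of the 2 hairpins. The tables give counts for each hairpin without arm or read length, so which reads made up these counts was not analysed here.

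The motif GGAG, the known contact of the zinc knuckles of LIN28 in let-7 precursors, was searched on the hairpin's own strand. It was present in 6 of the 9 hairpins, in each case between the arms or within the first 2 bases of the 3p arm. Mirlet7g, Mirlet7i, Mirlet7d, Mirlet7a-1, Mirlet7f-1 and Mirlet7f-2 had it, and Mirlet7b, Mirlet7c-2 and Mir98 did not. Among the 1005 mouse hairpins of RefSeq, 44.5% hold these letters somewhere, so the match is a description of the sequence and not of binding. The mean levels of the 6 hairpins with the motif ran from 124 to 71710 CPM, and those of the 3 without it from 1042 to 7521 CPM.

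Between the pups, Mirlet7i and Mirlet7b were higher in pup 1 and Mirlet7g higher in pup 3, all by small amounts. The log2 ratio of pup 1 over pup 3 was taken after TMM scaling, which sets the libraries on 1 scale through the bulk of the genes. It was 0.34 for Mirlet7i (95% counting interval 0.32 to 0.35), 0.24 for Mirlet7b (0.21 to 0.26) and -0.11 for Mirlet7g (-0.12 to -0.10). The interval of Gm24111, with 311 counts in pup 1 and 369 in pup 3, was the widest, 0.03 to 0.47 around 0.25. Mirlet7f-2 had 0.08 (0.03 to 0.13) and Mir98 0.05 (0.01 to 0.09). The intervals of Mirlet7d at 0.01, Mirlet7c-2 at -0.05 and Mirlet7a-1 at -0.06 included 0. With the TMM scaling held fixed, the intervals thus left out 0 at Mirlet7i, Mirlet7b, Mirlet7g, Gm24111, Mirlet7f-2 and Mir98. For Gm24111, Mirlet7f-2 and Mir98 the lower end lay close to 0, at 0.03, 0.03 and 0.01. The intervals leave out the error of the scaling itself. In plain CPM, without TMM scaling, the ratio was 0.00 for Mir98 and 0.03 for Mirlet7f-2. Of the 9 ratios, 6 then lay outside the counting intervals given here. There is 1 library on each side, so these ratios compare 2 libraries and have no replicate check.

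Of the 9 members 0 were at least 1.5-fold apart between the pups, where 6.62% of the 287 genes averaging 50 counts or more were, and 1.74% of those genes were at least 2-fold apart. At 1.2-fold the count was 1 of 9, Mirlet7i, where 27.2% of these genes were as far apart. The median log2 ratio of the members was 0.05, against -0.01 over the 287 genes, and the median size of the ratio without its sign was 0.08 for the members and 0.16 for the 287 genes. In these comparisons the 287 genes were not matched to the members in count, and genes with fewer counts carry more counting error. With TMM scaling 6 members were higher in pup 1 and 3 in pup 3. In plain CPM 5 were higher in pup 1 and 4 in pup 3, Mirlet7d being the one whose direction turned, with 0.01 after TMM scaling and -0.03 in plain CPM. Of the 287 genes 19.2% lay further apart than Mirlet7i and 64.8% further apart than Mirlet7g.

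**Figure D3:**
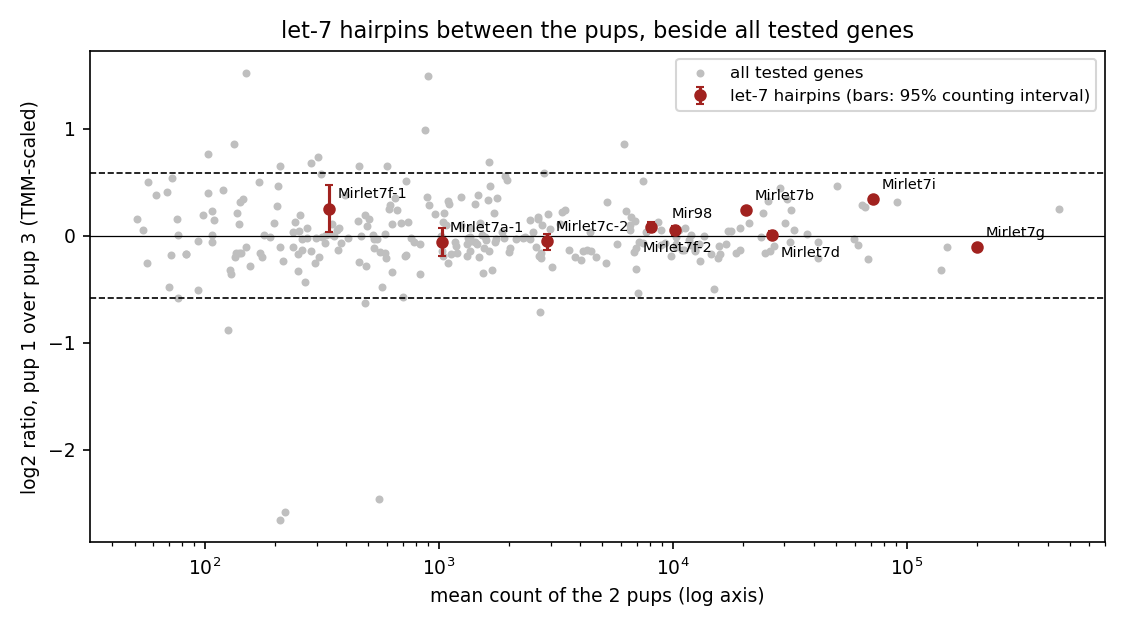
Log2 ratio of pup 1 over pup 3 (TMM-scaled) against the mean count of the pups (log axis), for the 287 tested genes in grey and the let-7 hairpins in red with 95% counting intervals. Dashed lines mark 1.5-fold, and the 9 hairpins lie between them, from -0.11 for Mirlet7g to 0.34 for Mirlet7i.

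Strand was clean at these hairpins. For 7 of the 9 members no read was counted on the strand that was not used. Mirlet7b had 3 such reads in pup 1 against 18716 on its own strand, and Gm24111 had 1 in pup 3 against 369 on the strand of Mirlet7f-1.

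The let-7 hairpins of the tricistrons added little to the family's counts. Mirlet7a-2 had 275 CPM in pup 1, against 260 CPM in pup 3, Mirlet7c-1 had 544 CPM in pup 1, against 560 CPM in pup 3, and Mirlet7e, read from the strand opposite Gm25927, had 7034 CPM in pup 1, against 6822 CPM in pup 3. The 9 members held 94.0% of the counts of all 12 of these let-7 hairpins in pup 1 (93.9 to 94.1%) and 94.2% in pup 3 (94.1 to 94.3%), with exact intervals in brackets, shares that are uncertain because let-7a-5p and let-7c-5p occur on both sides. The hairpins of miR-125, a known repressor of Lin28, were Mir125a at 8866 ± 709 CPM, Mir125b-1 at 3136 ± 126 CPM and Mir125b-2 at 2570 ± 136 CPM (SD, n = 2 each). Mir125a was thus close in level to Mirlet7d and Mirlet7b. Whether the miR-125 hairpins share an arm was not searched, so their order among reads that map to 1 place need not be that of the microRNAs.

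As a check of the labelled tissue, the 10 neuronal marker hairpins present in the tables summed to 44080 CPM in pup 1, against 49080 CPM in pup 3, with 7 detected. Mir137 led them, while the Mir124a hairpins, whose guide sequence several loci share, had 2.14 to 11.6 CPM. Of the Mir124a hairpins only Mir124a-1 was detected, with 27 counts in pup 1 and 37 in pup 3. Mir9-2 was also low, with 0.856 CPM in pup 1, against 1.25 CPM in pup 3. Mir126a of endothelium had 36188 CPM in pup 1, against 30095 CPM in pup 3. The 2 mural hairpins summed to 7214 CPM in pup 1, against 7123 in pup 3 and the 3 of oligodendrocytes to 1656 CPM in pup 1, against 1549 in pup 3. Of the 3 hairpins listed for microglia and leukocytes, the 2 present, Mir150 and Mir223, summed to 427 CPM in pup 1, against 382 in pup 3. Mir142 of that list was not found by name, so it is not part of this sum. The red blood cell list summed to 107 CPM in pup 1, against 60.1 in pup 3. The list of epithelium and choroid plexus summed to 1455 CPM in pup 1, against 1781 in pup 3. Within that last list the pups lay far apart at Mir429 (126 counts in pup 1, against 983 in pup 3, log2 ratio -2.46), Mir200b (42 counts in pup 1, against 378 in pup 3, -2.66) and Mir200c (46 counts in pup 1, against 392 in pup 3, -2.58), all higher in pup 3, while Mir204 had 3154 counts in pup 1, against 3764 in pup 3. The part of this in the members' differences between the pups was not tested. Mir122 of liver had 58.6 CPM in pup 1, against 47.9 CPM in pup 3. Of the 7 hairpins listed for striated muscle, the 6 present summed to 31.2 CPM in pup 1, against 37.6 in pup 3, with Mir1a-1, Mir133a-1 and Mir133a-2 at 0. Which cells the let-7 reads came from was not tested.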

How the data were processed

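Small RNAs of the midbrain of 2 newborn mice were sequenced. The deposited values are raw read counts per gene, made by the authors from alignments to mm10 with the GENCODE M4 annotation, per the deposited file descriptions. The names of the aligner and counting tool were not given in the sources used here. The tables have 3 count columns (either strand, own strand, opposite strand), 1973 genes and 4 rows that name no gene. These 4 rows held 57.2% of reads in pup 1 and 56.7% in pup 3, and stayed out of all totals. With the genes they sum to 5461825 reads in pup 1 and 7382778 in pup 3 whichever column is used, so reads mapping to several places enter no gene.

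Identifiers were matched without version to GENCODE M21 (GRCm38, also called mm10), which named 1894 of the 1973 genes. CPM used the own-strand counts on genes as the total. At 0 counts a level of up to 3 counts is allowed, which is 1.28 CPM for pup 1 and 0.939 CPM for pup 3. Ratios used TMM factors (edgeR 4.0.16) with a prior count of 0.5, for genes averaging 50 counts or more. A check on simulated data had counting error only and changes of 2-fold, so it did not test ratios as small as those of the members. Exact binomial and conditional intervals came from scipy 1.17.1. No p-value was computed, since there is 1 group and 1 library on each side of a ratio. Whether the pups were separate litters is not given, so the spread is that between these 2 libraries. Mature arms were searched in annotated hairpins only, since no genome sequence was used here, which changes the planned search. The members, lists and rules were chosen with earlier results of these data known. Text names the members, the related let-7 and miR-125 hairpins, the genes next in rank to the top 3 members and the marker lists. Neighbouring hairpins were taken as a cluster within 10 kb. Alternatives were other totals, scalings (DESeq2 1.42.0 size factors, plain CPM), prior counts, count minimums, thresholds, strands, mismatches and each pup alone.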

Additional observations from a re-analysis of the deposited data

Results flagged for a closer look

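Reads mapping to several places, which enter none of the levels above, were far above what a count of 0 allows in both libraries. In pup 1 they took 38.7% of all reads and in pup 3 39.8%, signal outside the counts used. Of the 9 members 4 have a guide arm that occurs in 2 hairpin loci, and how many of these reads are let-7 was not tested.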

How the results depend on the processing

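The members' share of counts, 12.3%, was 11.9% with either-strand counts, 5.31% over all reads in the tables, 14.7% without the most abundant gene in the total and 5.17% without Mirlet7g, an alternative chosen after seeing the data. The changed total or list accounts for each of these by construction. With TMM-scaled totals or without Gm24111 it was 12.3%, and with 1 pup left out in turn 12.3 to 12.4%. The share of the members' counts on hairpins whose guide arm occurs in 1 locus fell to 68.9% when 1 mismatch was allowed, against 96.4% for exact matches, since Mirlet7i and Mirlet7b then match further hairpins. It was 96.4% in each pup alone. Over the genome this share was not run, since no genome sequence was used.

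The median log2 ratio of the members was 0.00 in plain CPM against 0.05 with TMM, and 0.04 to 0.05 under the other settings. The number of members at least 1.5-fold apart was 0 under each scaling, prior count and count minimum and at 2-fold, and 1 at 1.2-fold. With a mean count of at least 10, 12.1% of 373 genes were 1.5-fold apart, and 37.0% of 697 genes with no minimum. The 9 members stayed detected with 1 or 100 counts in each pup and in each pup alone. In 8 pairs of neighbours in the order the pups did not overlap, and in 7 pairs per base of hairpin, a division chosen after seeing the data. No paired analysis was possible because the series has 1 group. At Gm24111, with fewer than 400 counts in each pup, the 95% counting interval of the log2 ratio ran from 0.03 to 0.47 around 0.25.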

Other observations

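Other hairpins related to let-7 by name or seed were also counted. The hairpin Mir7j, whose mature sequence RefSeq names let-7j, had 205 CPM in pup 1, against 135 CPM in pup 3 (480 counts in pup 1, against 431 in pup 3). Its log2 ratio of pup 1 over pup 3 was 0.65 (95% counting interval 0.46 to 0.85), and 4.88% of the 287 tested genes lay further apart, whereas the 9 members lay between -0.11 and 0.34. This compares 2 libraries with no replicate check, and the difference was not tested. Mir7j is the further hairpin that let-7i-5p matches with 1 mismatch, and whether let-7i reads enter its counts was not tested. The mature sequence of Mir7j is not among the 13 entries that carry the seed GAGGUAG. Mir7k and Mir1961, which carry that seed, had 0 counts in both pups, so a level of up to 1.28 CPM in pup 1 or 0.939 in pup 3 is allowed. The let-7 hairpins of the tricistrons had log2 ratios of 0.13 for Mirlet7a-2 (-0.03 to 0.28), 0.01 for Mirlet7c-1 (-0.10 to 0.11) and 0.09 for Mirlet7e (0.06 to 0.12).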
